A study of Mus musculus with 24 samples.

Results

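Cholesterol synthesis and its control were followed through 34 genes in dispersed mouse islet cells. The genes were chosen by name, with earlier results of these data known. They were 8 enzymes of the mevalonate and isoprenoid steps, 12 enzymes from squalene to cholesterol, and 5 SREBP factors and regulators. The others were 4 genes of intracellular sterol transport and esterification, and 5 liver X receptor (LXR) genes and targets. All 34 of the 34 were among the 15916 genes with enough counts to test, out of 41549 gene identifiers in the table. The cells came from wild-type C57BL/6NRj mice of both sexes, 12 to 14 weeks old. They were transfected with 50 pmol of a control antisense oligonucleotide (Ctr) or of one directed at a fragment of tRNA-Glu(CTC) (αGlu). They were then kept for 48 h in medium with 1% serum and either 0.5 mM palmitate bound to albumin (PA) or 0.75% albumin alone (BSA). Each oligonucleotide was combined with each medium, which gave 4 groups (αGlu PA, αGlu BSA, Ctr PA and Ctr BSA) of 6 mRNA libraries each, and the study describes its primary-cell replicates as preparations from different animals. It also states that the groups of a replicate shared a cell passage or an animal, but the labels do not say which libraries these were, so the groups were compared unpaired. Each group had 3 libraries in batch 1 (S1 to S12) and 3 in batch 2 (S13 to S24), and what sets the batches apart is not stated.

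Animal cells make cholesterol from acetyl-CoA through mevalonate, farnesyl diphosphate, squalene and lanosterol. When sterols in the endoplasmic reticulum run low, the escort protein SCAP carries the SREBP factors to the Golgi, where they are cut and released to activate the genes of the pathway. INSIG proteins hold SCAP back when sterols are plentiful. LXR receptors answer to oxysterols instead and switch on genes of cholesterol export. In beta cells, membrane cholesterol is known to bear on insulin granule release.

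Library totals ran from 18214719 to 35001979 counts. Every group held high counts of the beta-cell markers, whose summed level was between 83800 and 152000 CPM in all libraries. Ctr PA library S23 stood apart for these genes: 17 of the 34 members had their highest value of the group there, so results for Ctr cells are also given without it. In αGlu PA, library S8 of batch 1 had the lowest value for 17 members. Without S8, 19 members were called for PA in αGlu cells, against 17 with it. Markers of other cells moved with PA. Of 10 macrophage markers, 7 fell in Ctr cells and 1 in αGlu cells. Their summed levels in Ctr cells were 83.2 to 370 CPM with BSA and 85.7 to 129 CPM with PA. The value of 370 CPM was that of library S21 alone, and the next highest with BSA was 173 CPM. In αGlu cells the sums were 94.4 to 175 CPM and 83 to 139 CPM. C1qa made up much of these sums, with means of 84.3 CPM in Ctr BSA and 81.2 CPM in Ctr PA. The mean of Lyz2 went from 49.6 to 3.8 CPM in Ctr cells. The median log2 fold change of the 10 markers was -2.17 in Ctr cells and -0.31 in αGlu cells. The difference between these responses was called for 0 of the 10 (edgeR, smallest adjusted p = 0.999), with 5 at an unadjusted p below 0.05. With BSA, αGlu against Ctr had a median of -0.84 for these markers, and 0 were called. Of 6 fibroblast markers tested, 5 fell in Ctr cells, from sums of 67.2 to 416 CPM to sums of 6.89 to 42.6 CPM, and 3 in αGlu cells, from 39.5 to 931 CPM to 4.37 to 159 CPM. Of 6 acinar markers, 5 fell in Ctr cells, from 321 to 15800 CPM to 162 to 6140 CPM, and 4 in αGlu cells, from 375 to 9990 CPM to 243 to 5410 CPM. Of 5 ductal markers, 3 fell in each comparison, and of 7 alpha, delta and PP cell markers, 3 fell in Ctr and 1 in αGlu cells. None of 6 endothelial or 6 glial markers passed (edgeR), and none had an unadjusted p below 0.05. Of 9 beta-cell markers, 3 rose and 3 fell in Ctr cells, and 3 rose and 2 fell in αGlu cells. In Ctr cells their log2 fold changes ran from -0.44 for Ins1 to 0.58, with -0.41 for Mafa. Mean levels in Ctr BSA and Ctr PA were 322 and 471 CPM for Ucn3, and 18900 and 25100 CPM for Iapp. For G6pc2 they were 1220 and 1460 CPM. None of these markers was at 0 in all libraries. In such bulk libraries, fewer cells of a type and less RNA per cell cannot be told apart, and the part of other cells in the results below was not tested.

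At rest, in Ctr BSA cells, the genes covered a wide range of levels, compared here per length as deposited TPM. Insig1, the feedback inhibitor of SREBP processing, had the highest median at 120 TPM (89.4 to 139). It was followed by Abca1, an exporter of cholesterol, at a median of 100 TPM, and by Sqle, the squalene epoxidase that forms a rate-limiting step, at 85 TPM. The levels of Srebf2 (75.5 TPM), Npc2 (72.4 TPM), Srebf1 (71.2 TPM) and Hmgcs1 (68.1 TPM) followed closely, and their ranges over the 6 libraries overlapped. At the low end stood Tm7sf2, a sterol reductase, at 6.91 TPM, and Nr1h3, which encodes LXRα, at 6.58 TPM. Even Nr1h3 lay at the 40th percentile of all genes tested, and Insig1 at percentile 95.7. The other LXR gene, Nr1h2, had a median of 39.2 TPM, and its range did not overlap with that of Nr1h3.

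**Figure D1:**
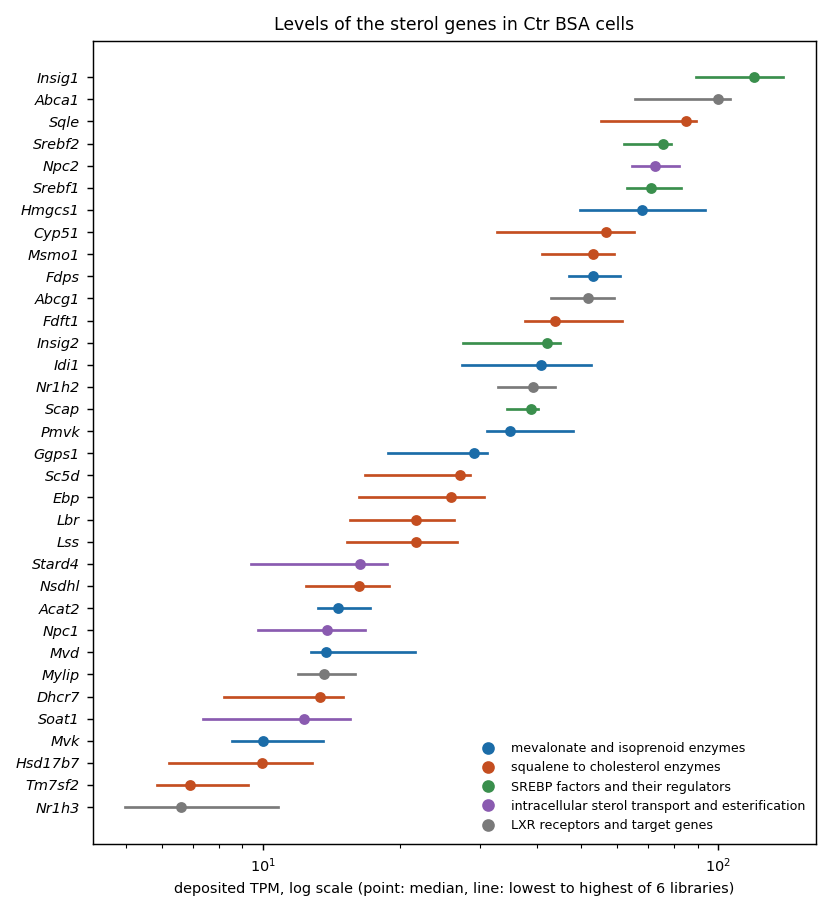
Deposited TPM of the 34 genes in the 6 Ctr BSA libraries, on a log axis, with points at the median and lines from the lowest to the highest library. Insig1 has the highest median (120 TPM) and Nr1h3 the lowest (6.58 TPM), and most neighbours in the order overlap.

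Under PA, more of these genes rose than fell. In Ctr cells, 14 of the 34 genes rose and 2 fell at an adjusted p below 0.05 (edgeR), while 18 did not pass. Over all genes tested, 15.5% were called higher and 14.5% lower. The median log2 fold change was 0.22, against 0.0074 for all genes, and the values ran from -0.23 to 0.70. In αGlu cells, 15 rose and 2 fell, where 14.4% of all genes were called higher and 14.2% lower, and the median was again 0.22, against 0.0055 for all genes. Between the comparisons in Ctr and αGlu cells, 12 genes rose in both, 5 rose in 1 of them alone, and 2 fell in both. The comparisons share no libraries. By the study's account their groups shared cell passages or animals, so they are not independent of each other. No change was large. The study asked for more than a 2-fold change at a p under 0.05. Whether that p was adjusted is not stated, and with it read as unadjusted none of the 34 genes was called in either comparison, against 5.91% of all genes in Ctr cells and 5.57% in αGlu cells. At an unadjusted p below 0.05 alone, 18 and 22 members passed, against 40.6% and 39.1% of all genes. Without library S23, the median in Ctr cells was 0.14, and 12 genes rose: Hmgcs1, Hsd17b7 and Insig2 lost their calls and Pmvk gained one.

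**Figure D2:**
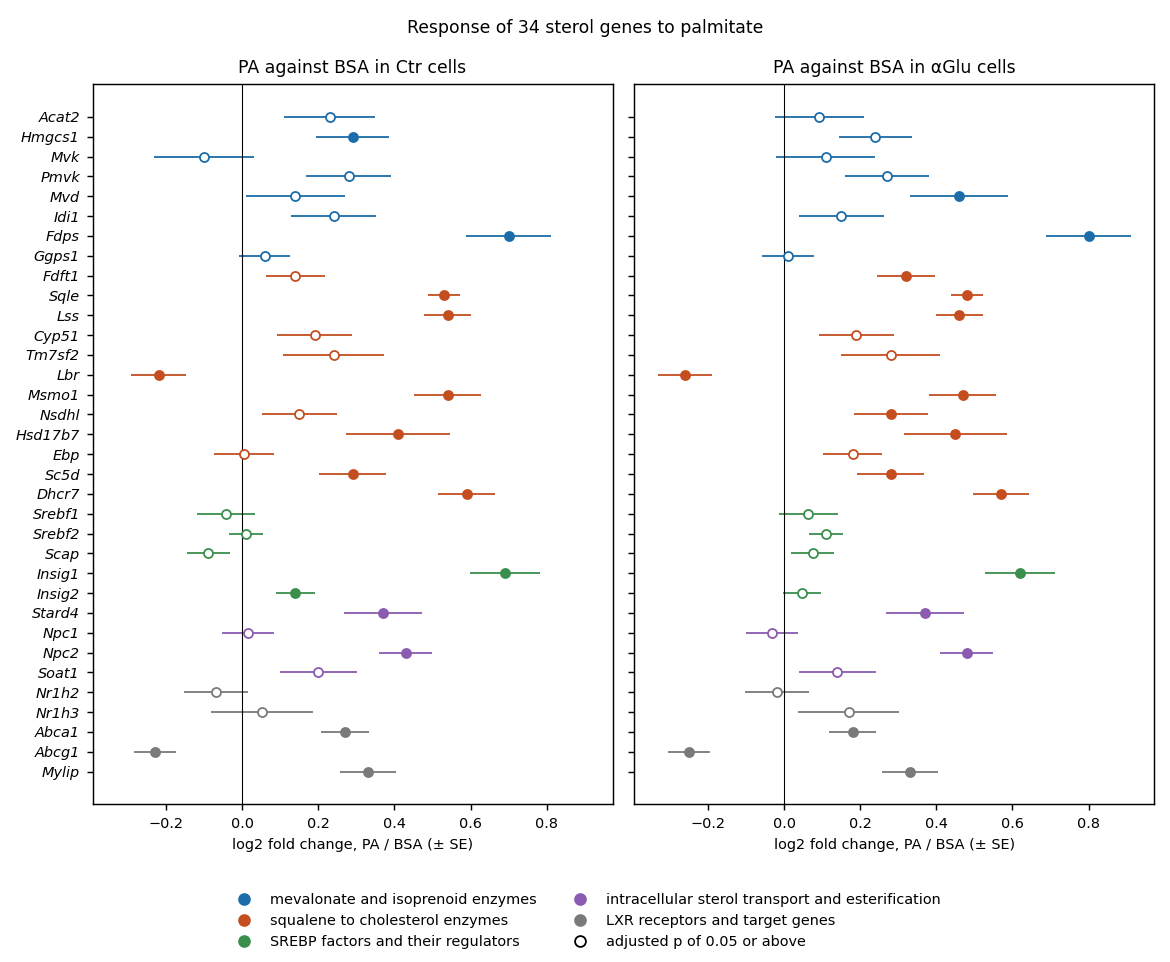
Log2 fold change of each gene under PA in Ctr cells (left) and αGlu cells (right), with standard errors, coloured by role; open symbols did not reach an adjusted p of 0.05. Fdps and Insig1 lie farthest to the right in both panels, and Lbr and Abcg1 lie to the left.

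In the mevalonate and isoprenoid steps, 2 of 8 genes rose in each comparison. Fdps had a lowest 72.9, median 83.3 and highest 95.1 CPM in Ctr BSA and a lowest 118, median 129 and highest 174 CPM in Ctr PA. Every Ctr PA library was above every Ctr BSA library for this synthase, which makes farnesyl diphosphate at the branch point to sterols, ubiquinone and prenylated proteins. Its log2 fold change was 0.70 (SE 0.111, adjusted p = 4.05e-05), a rise of 62.6%. In αGlu cells it rose from a median of 79.6 to 145 CPM, with a log2 fold change of 0.80 (SE 0.111, adjusted p = 8.4e-06), and again the groups did not overlap.

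Hmgcs1 forms HMG-CoA, the precursor of mevalonate. Hmgcs1 had a lowest 104, median 114 and highest 146 CPM in Ctr BSA and a lowest 132, median 143 and highest 179 CPM in Ctr PA. The groups overlapped, and the log2 fold change was 0.29 (SE 0.0952, adjusted p = 0.0228). This call was lost without Ctr BSA library S17 or without S23, where the adjusted p reached 0.0661. In αGlu cells the value was 0.24 (adjusted p = 0.0567), which did not pass. Mvd, the decarboxylase that yields isopentenyl diphosphate, had a log2 fold change of 0.14 in Ctr cells (adjusted p = 0.453) and rose in αGlu cells by 0.46 (SE 0.129, adjusted p = 0.00866). The difference between these responses of Mvd was 0.33 (SE 0.182, adjusted p = 0.999), so the genes called in 1 comparison alone are not shown to differ. The thiolase Acat2, the kinases Mvk and Pmvk, the isomerase Idi1 and Ggps1, which makes geranylgeranyl diphosphate, passed in neither comparison, with log2 fold changes from -0.10 to 0.28 in Ctr cells.

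From squalene to cholesterol, 6 of 12 genes rose and 1 fell in Ctr cells, and 8 rose and 1 fell in αGlu cells. Sqle had a lowest 141, median 164 and highest 181 CPM in Ctr BSA and a lowest 203, median 225 and highest 285 CPM in Ctr PA. The libraries of both groups were fully apart. The log2 fold change of this squalene epoxidase was 0.53 (SE 0.0421, adjusted p = 3.88e-09), the smallest p of the 34 genes, and 0.48 in αGlu cells (adjusted p = 1.62e-08). Lss closes the epoxide to lanosterol. Lss had a lowest 77.2, median 82.6 and highest 103 CPM in Ctr BSA and a lowest 100, median 126 and highest 156 CPM in Ctr PA. A single overlap of 103 against 100 CPM remained between its groups, and the log2 fold change was 0.54 (SE 0.0616, adjusted p = 6.56e-07), with 0.46 in αGlu cells.

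Msmo1 removes methyl groups from lanosterol-derived sterols. Msmo1 had a lowest 104, median 119 and highest 131 CPM in Ctr BSA and a lowest 142, median 163 and highest 250 CPM in Ctr PA. The groups did not overlap, the highest value was that of S23, and the log2 fold change was 0.54 (SE 0.0882, adjusted p = 5.23e-05). Dhcr7 carries out the last reduction to cholesterol. Dhcr7 had a lowest 19.4, median 27.5 and highest 31.4 CPM in Ctr BSA and a lowest 31.6, median 38.9 and highest 52.3 CPM in Ctr PA. Its groups were just apart, at 31.4 and 31.6 CPM, and the log2 fold change was 0.59 (SE 0.0747, adjusted p = 2.45e-06). In αGlu cells Dhcr7 rose by 0.57 (adjusted p = 4.05e-06), and there the groups overlapped.

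Smaller rises were seen for the desaturase Sc5d, by 0.29 (adjusted p = 0.0159), and for Hsd17b7, a ketosterol reductase, by 0.41 (adjusted p = 0.0233), and both also rose in αGlu cells. Without S23 the value of Sc5d in Ctr cells was 0.16, still past the test. The call of Sc5d was lost in both comparisons without a batch term and in either batch alone, and in Ctr cells also in a fit of the compared groups only. The call of Hsd17b7 in Ctr cells was lost without Ctr BSA library S1 or S17 or without S23, its highest value of 37.2 CPM, with adjusted p values up to 0.0798. Fdft1, the squalene synthase, rose in αGlu cells by 0.32 (adjusted p = 0.00314), with 0.14 in Ctr cells (adjusted p = 0.164). Nsdhl rose in αGlu cells by 0.28 (adjusted p = 0.0343), a call that was lost without any of αGlu libraries S2, S14, S16, S18, S20, S22 or S24 (adjusted p up to 0.0847). Cyp51, Tm7sf2 and Ebp passed in neither comparison. Lbr, a sterol reductase that is also a receptor for lamin B in the nuclear envelope, went the other way. It was lower in Ctr cells, with a log2 fold change of -0.22 (adjusted p = 0.0239), and this call was lost without any of S3, S9, S11, S13 or S15 (adjusted p up to 0.0733). In αGlu cells its value was -0.26 (adjusted p = 0.00718). Tm7sf2, which reduces the same bond, had a log2 fold change of 0.24 in Ctr cells (adjusted p = 0.181).

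Among the SREBP factors and their regulators, Insig1 rose in both comparisons. Insig1 had a lowest 123, median 135 and highest 147 CPM in Ctr BSA and a lowest 179, median 221 and highest 277 CPM in Ctr PA. No Ctr PA library came down to the Ctr BSA range. The log2 fold change was 0.69 (SE 0.0922, adjusted p = 5.15e-06) in Ctr cells and 0.62 (SE 0.0921, adjusted p = 2.02e-05) in αGlu cells, where the groups did not overlap either. The genes of the factors showed no such change in Ctr cells. Srebf2, which encodes the factor most closely tied to cholesterol genes, had a median of 194 CPM in Ctr BSA and 199 CPM in Ctr PA, with a log2 fold change of 0.0092 (95% interval -0.083 to 0.10). Srebf1 had a log2 fold change of -0.043 (interval -0.20 to 0.12) and Scap one of -0.089 (interval -0.21 to 0.028). In αGlu cells none of these passed, with 0.11 for Srebf2 (adjusted p = 0.0808), 0.064 for Srebf1 and 0.075 for Scap. Without library S8, Srebf2 passed there (adjusted p = 0.0412). Insig2, a homologue of Insig1, passed in Ctr cells with 0.14 (adjusted p = 0.042) and had 0.047 in αGlu cells (adjusted p = 0.534). Its call was lost without any of S1, S3, S5, S7, S13, S17, S21 or S23 (adjusted p up to 0.093) and under 7 of the 8 other ways of processing tried.

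In transport, Npc2 and Stard4 rose in both comparisons. Npc2 had a lowest 128, median 145 and highest 168 CPM in Ctr BSA and a lowest 167, median 197 and highest 228 CPM in Ctr PA. The groups met only at their edges, and this lysosomal cholesterol-binding protein gained 0.43 on the log2 scale (SE 0.0698, adjusted p = 5.68e-05), and 0.48 in αGlu cells (adjusted p = 1.33e-05). Its partner in the lysosome membrane, Npc1, had a log2 fold change of 0.015 in Ctr cells (95% interval -0.13 to 0.16) and -0.032 in αGlu cells. Stard4, a cytosolic sterol carrier, rose by 0.37 in Ctr cells (SE 0.103, adjusted p = 0.00844), with groups that did not overlap, and by 0.37 in αGlu cells. Soat1, which esterifies cholesterol for storage, passed in neither comparison, with 0.20 in Ctr cells (adjusted p = 0.134) and 0.14 in αGlu cells.

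The LXR targets did not move together. Abca1 had a lowest 324, median 371 and highest 385 CPM in Ctr BSA and a lowest 382, median 433 and highest 526 CPM in Ctr PA. The ranges overlapped slightly, at 382 and 385 CPM, and Abca1, which loads cholesterol onto lipid-poor apolipoprotein, rose by 0.27 (SE 0.062, adjusted p = 0.00187). In αGlu cells the rise was 0.18 (adjusted p = 0.0326), and leaving out any of S4, S6, S12, S14, S18, S20, S22 or S24 lost that call (adjusted p up to 0.0914). Abcg1 had a lowest 130, median 136 and highest 153 CPM in Ctr BSA and a lowest 104, median 119 and highest 134 CPM in Ctr PA. This exporter to mature lipoproteins fell by 0.23 on the log2 scale (SE 0.055, adjusted p = 0.00267), with overlapping groups, and fell by 0.25 in αGlu cells (adjusted p = 0.00149). Macrophages also express Abca1, Abcg1 and Nr1h3. The macrophage markers had a median log2 fold change of -2.17 in Ctr cells, with 7 of 10 called lower. In αGlu cells the median was -0.31, with 1 of 10 called lower. The difference between these responses was called for 0 of the 10 markers. The part of macrophages in the fall of Abcg1 was not tested. Mylip, a ubiquitin ligase for lipoprotein receptors, rose by 0.33 in both Ctr cells (adjusted p = 0.00167) and αGlu cells (adjusted p = 0.00173), with no overlap in either. The receptor genes Nr1h2 and Nr1h3 passed in neither comparison. In all, 7 of the 34 genes had every Ctr PA library above every Ctr BSA library, against 2.97% of all genes, and 8 had the same in αGlu cells, against 4.17%.

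**Figure D3:**
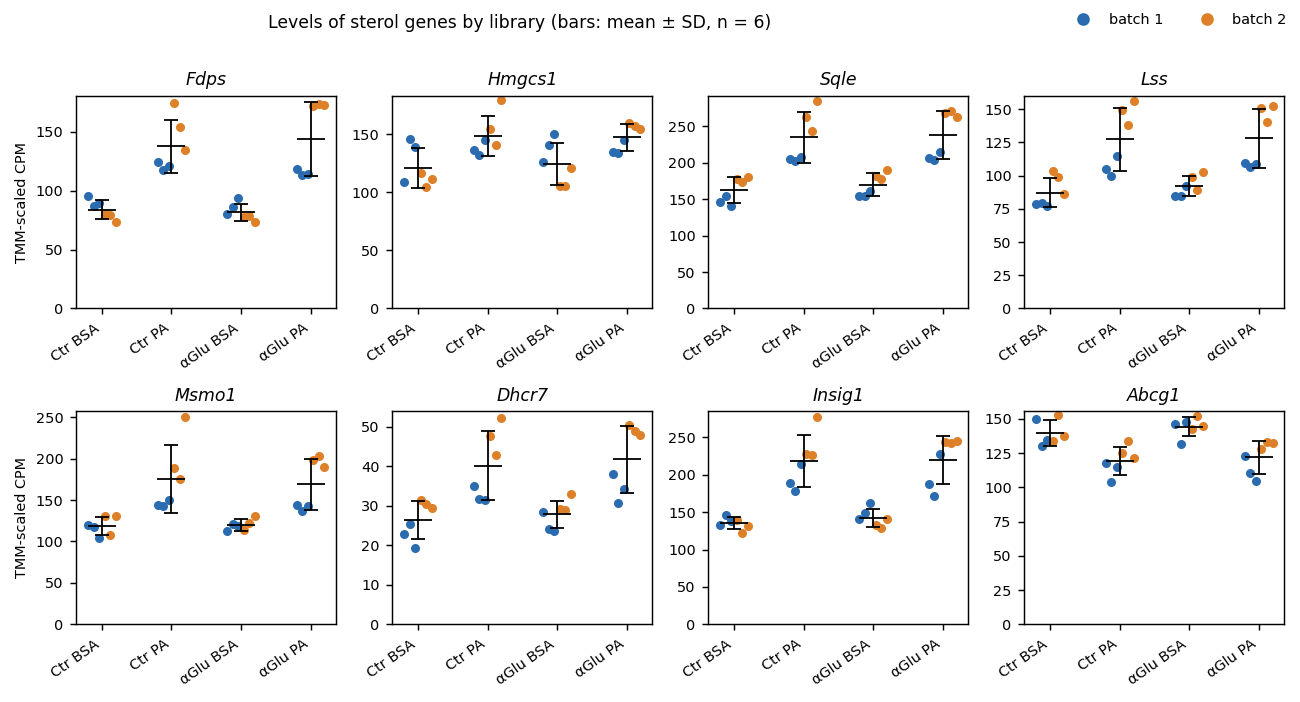
TMM-scaled CPM of 8 genes in all 24 libraries, by group and coloured by batch, with mean and SD (n = 6). The PA libraries of batch 2 lie above those of batch 1 for Fdps, Sqle, Msmo1 and Dhcr7, and Abcg1 is lower with PA.

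The mean PA response over Ctr and αGlu cells, added after seeing the data, has the greater precision of 12 libraries against 12. It called 22 genes higher and 2 lower, where 23.4% of all genes were called higher and 22% lower. Genes gained here over both separate comparisons were Pmvk with 0.27 (SE 0.0788, adjusted p = 0.00628), Tm7sf2 with 0.26 (adjusted p = 0.0251), Cyp51 with 0.19 (adjusted p = 0.0279), Idi1 with 0.19 (adjusted p = 0.0487) and Soat1 with 0.17. With these, 10 of the 12 enzymes from squalene to cholesterol rose. Srebf2 remained at 0.057 (95% interval -0.0081 to 0.12), Srebf1 at 0.01 and Scap at -0.0068.

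The size of the PA response differed between the batches. In Ctr cells the median log2 fold change of the 34 genes was 0.068 in batch 1 and 0.41 in batch 2, each from 3 libraries against 3, while the medians of all genes were -0.0047 and 0.0097. In αGlu cells the medians were 0.10 and 0.43. The response was larger in batch 2 for 29 of the 34 genes in Ctr cells and for 31 in αGlu cells. Tested as the difference of both batches' responses, averaged over the ASOs and added after seeing the data, 2 genes passed an adjusted p of 0.05, where 0.0314% of all genes were called higher, 5 genes in all. This fit, too, took Ctr and αGlu libraries as independent. At an unadjusted p below 0.05, 17 of the 34 genes were higher, against 2.11% of all genes tested.

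Both genes that passed belong to the mevalonate steps. Fdps in Ctr cells went from 86.7 to 95.1 CPM with BSA to 118 to 124 CPM with PA in batch 1, and from 72.9 to 79.9 CPM to 134 to 174 CPM in batch 2. In αGlu cells of batch 2, its 3 PA libraries lay between 172 and 173 CPM, against 113 to 119 CPM in batch 1. The rise was thus seen in both batches, and was larger in batch 2 by 0.67 (SE 0.0753, adjusted p = 0.000103). Acat2, the thiolase that starts the pathway, had log2 fold changes of -0.048 in batch 1 and 0.51 in batch 2 in Ctr cells, and of -0.31 and 0.49 in αGlu cells. The difference was 0.67 (SE 0.0998, adjusted p = 0.00359). In batch 2, the PA libraries of Acat2 (17.3 to 19.5 CPM in Ctr and 18 to 19.5 CPM in αGlu) all lay above the BSA libraries (12.4 to 13.6 CPM and 12.5 to 14.9 CPM). Leaving out any 1 of the 24 libraries kept both calls, with adjusted p values up to 0.00047 for Fdps and 0.0141 for Acat2.

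Further genes had the same direction without passing in this fit. Hmgcs1, Cyp51 and Insig1 among them passed with the assumed replicate block described at the end. The difference was 0.59 for Mvd (adjusted p = 0.236), 0.51 for Idi1 (adjusted p = 0.256), 0.48 for Hmgcs1 (adjusted p = 0.0971), 0.46 for Cyp51 (adjusted p = 0.19) and 0.45 for Insig1 (adjusted p = 0.12). Other genes that rose with PA had like responses in both batches. Npc2 had log2 fold changes of 0.41 and 0.43 in Ctr cells and of 0.44 and 0.52 in αGlu cells, and Sqle had 0.47 and 0.57 in Ctr cells. For Soat1 the larger response was that of batch 1, with 0.32 against 0.088 in Ctr cells, and the difference of -0.19 did not pass (unadjusted p = 0.171). The batches also differed in their levels of cell-type markers. Sums of the 6 acinar markers were 2250 to 15800 CPM in batch 1 and 162 to 462 CPM in batch 2, 12 libraries each. Those of the beta-cell markers were 83800 to 134000 CPM (median 87800) and 110000 to 152000 CPM (median 132000). In batch 1, library S1 alone had 134000 CPM, and the next highest was 98800 CPM. The part of these differences in the result was not tested.

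**Figure D4:**
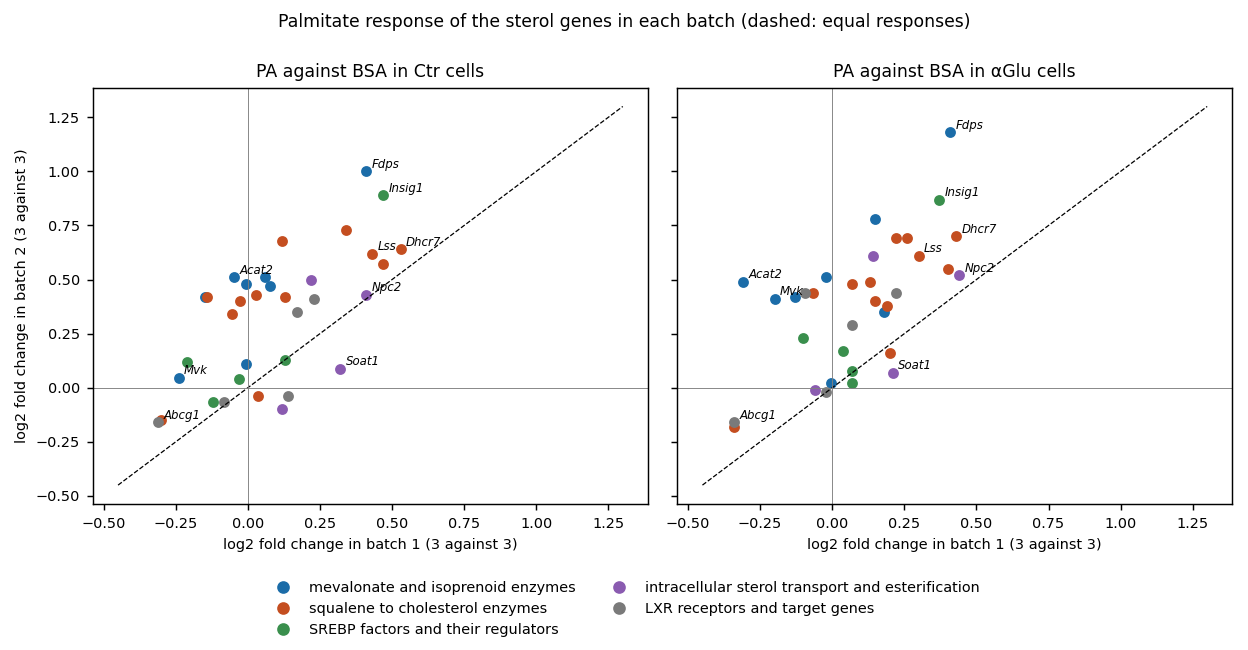
Log2 fold change under PA of each gene in batch 1 (horizontal axis) and batch 2 (vertical axis), in Ctr cells (left) and αGlu cells (right). Of the 34 genes, 29 and 31 lie above the dashed line of equal responses, and Npc2 lies close to it.

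Levels differed between the batches as well. Averaged over groups, 16 of the 34 genes were higher in batch 2 and 4 lower, where 26.1% and 25.4% of all genes were called. Of the 12 enzymes from squalene to cholesterol, 9 were higher, with 0.44 for Dhcr7 (adjusted p = 1.7e-07), 0.42 for Ebp and 0.34 for Lss. Of the 8 mevalonate and isoprenoid enzymes, 2 were higher and 1 lower. Nr1h3 was higher by 0.51 (adjusted p = 7.77e-05) and Nr1h2 was lower, with a log2 difference of -0.37 (adjusted p = 1.28e-05).

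Promoters are shown for Insig1, Lss and Msmo1, which had the largest log2 fold changes in Ctr cells among the genes with a single window that rose in both comparisons, with that of Hmgcs1, the only gene with a sterol regulatory element as searched here, and that of Srebf2, which did not pass. The windows span 250 bases before to 50 after a gene's start, from RefSeq on GRCm38.p6, and were found for 28 of the 34 genes. Fdps, Sqle, Fdft1, Stard4, Npc1 and Abcg1 had no window, so no motif was searched for them. Of these, Fdps, Sqle and Stard4 rose in both comparisons. Capitals mark matches, on either strand, to TCACNCCAC (sterol regulatory element), CCAAT and GGGCGG (GC box), and adjoining matches can run together.
Insig1, chr5:28071162-28071461, + strand: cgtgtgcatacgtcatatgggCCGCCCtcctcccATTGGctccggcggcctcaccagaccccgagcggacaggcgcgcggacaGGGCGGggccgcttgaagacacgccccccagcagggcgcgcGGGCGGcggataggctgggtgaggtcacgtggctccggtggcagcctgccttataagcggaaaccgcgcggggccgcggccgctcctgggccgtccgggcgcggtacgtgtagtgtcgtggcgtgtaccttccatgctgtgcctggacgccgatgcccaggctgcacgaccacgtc
Lss, chr10:76531355-76531654, + strand: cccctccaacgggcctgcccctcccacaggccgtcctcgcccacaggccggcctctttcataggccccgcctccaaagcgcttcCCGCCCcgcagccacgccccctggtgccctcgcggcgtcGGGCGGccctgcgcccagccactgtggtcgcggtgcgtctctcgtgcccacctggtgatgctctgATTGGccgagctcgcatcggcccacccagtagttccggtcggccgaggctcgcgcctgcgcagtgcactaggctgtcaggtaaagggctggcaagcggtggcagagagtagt
Msmo1, chr8:64733529-64733828, - strand: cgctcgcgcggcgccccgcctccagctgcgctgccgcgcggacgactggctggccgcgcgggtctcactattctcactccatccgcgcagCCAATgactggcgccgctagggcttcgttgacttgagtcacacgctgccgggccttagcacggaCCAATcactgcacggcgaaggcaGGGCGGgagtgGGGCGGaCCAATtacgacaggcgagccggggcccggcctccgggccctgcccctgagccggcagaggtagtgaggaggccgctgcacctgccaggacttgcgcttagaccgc
Hmgcs1, chr13:119690101-119690400, + strand: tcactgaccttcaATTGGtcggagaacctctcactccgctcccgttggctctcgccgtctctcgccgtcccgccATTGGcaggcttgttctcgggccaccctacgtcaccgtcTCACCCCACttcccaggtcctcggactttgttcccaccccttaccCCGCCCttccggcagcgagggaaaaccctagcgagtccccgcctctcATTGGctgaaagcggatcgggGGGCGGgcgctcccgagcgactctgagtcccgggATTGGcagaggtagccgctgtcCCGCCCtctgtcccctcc
Srebf2, chr15:82147019-82147318, + strand: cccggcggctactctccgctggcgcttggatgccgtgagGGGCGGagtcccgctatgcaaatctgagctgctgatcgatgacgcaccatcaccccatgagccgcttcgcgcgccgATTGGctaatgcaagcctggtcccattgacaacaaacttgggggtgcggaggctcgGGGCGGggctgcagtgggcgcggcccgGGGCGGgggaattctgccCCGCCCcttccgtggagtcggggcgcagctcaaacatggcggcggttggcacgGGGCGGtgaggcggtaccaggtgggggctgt
The CCAAT box, bound by NF-Y, a known partner of SREBP, was found for 23 of the 28 genes (82.1%), against 42.5% of the 12087 tested genes with a window and 37.4% of all 32851 windows of this length. Of the 9 genes with a window that rose in both PA comparisons, 8 held it, and of the 14 that passed in neither, 10 did. The GC box was found for 24 genes (85.7%), against 65.3% of the tested genes and 35.7% of all windows. Among the 28 genes, TCACNCCAC was found for Hmgcs1 alone, 137 bases before the start, and in 1.24% of all windows. These matches describe letters in the windows and not binding.

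No effect of the αGlu oligonucleotide on these genes was detected. With BSA, none of the 34 genes was called higher or lower (edgeR), where 0% of all genes were called, and none had an unadjusted p below 0.05. With PA, none was called either, against 0% of all genes, and 1 gene, Srebf2, had an unadjusted p below 0.05 (log2 fold change 0.12, adjusted p = 0.993). Srebf2 libraries ran from 185 to 207 CPM in Ctr PA and from 201 to 231 CPM in αGlu PA, with overlap. The difference between the PA responses of αGlu and Ctr cells was called for none of the 34 genes, 0% of all genes passed, and no member had an unadjusted p below 0.05. Over all genes, an unadjusted p below 0.05 was reached by 461, 538 and 332 genes in these comparisons, and DESeq2 called 8, 30 and 0 genes, with no member among them.

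The intervals bound what was missed. All 34 log2 differences between αGlu and Ctr had 95% intervals within 0.5 of 0, from -0.44 for Mvd to 0.35 for Pmvk with BSA, and from -0.29 for Acat2 to 0.49 for Mvk with PA. The difference of the PA responses had wider bounds, from -0.49 for Acat2 to 0.70 for Mvd. For Insig1 the αGlu libraries had medians of 141 CPM with BSA and 235 CPM with PA, beside 135 and 221 CPM in Ctr cells, and the ranges overlapped.

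**Figure D5:**
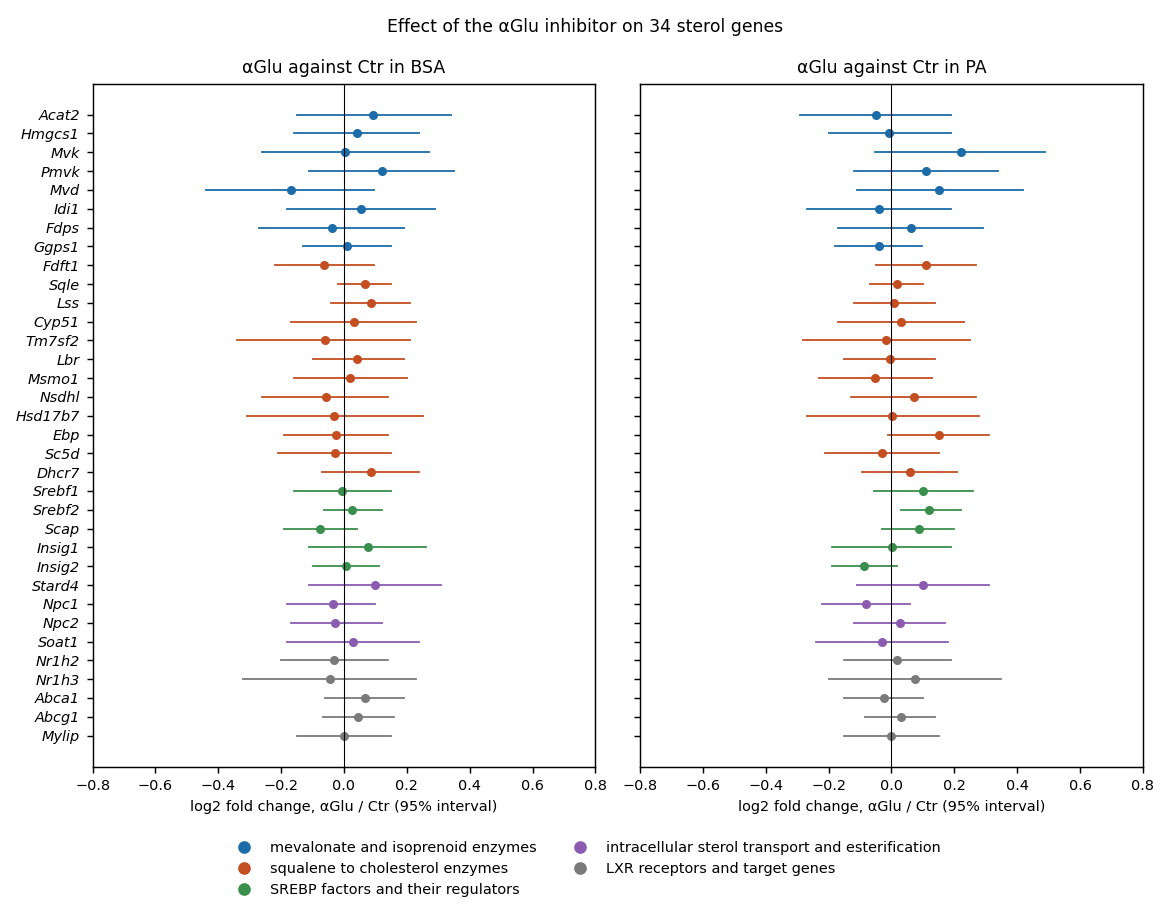
Log2 fold change of αGlu against Ctr for each gene, with 95% intervals, in BSA (left) and in PA (right). Every interval lies between -0.44 and 0.49, and all but that of Srebf2 in PA include 0.

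Neighbouring genes of sterol handling, from lists written with these results known, gave a mixed picture under PA, beside the 15.5% of all genes called higher and 14.5% called lower in Ctr cells. Of 14 other genes of sterol synthesis and SREBP processing, 6 rose and 3 fell in Ctr cells, with a median of 0.091, and 4 rose and 2 fell in αGlu cells. Erlin1, which binds SREBP complexes, rose by 0.62 (adjusted p = 8.58e-08) and 0.63, and Pgrmc1 by 0.39 (adjusted p = 1.66e-06) and 0.35, in Ctr and αGlu cells. Mbtps2, a protease that releases SREBP, rose by 0.42 in Ctr cells (adjusted p = 0.00312) and did not pass in αGlu cells, with 0.15 (adjusted p = 0.293). Rnf145, a sterol-responsive ubiquitin ligase, had -0.40 (adjusted p = 2.59e-08) and -0.42. Acly, which supplies acetyl-CoA, had -0.23 and -0.26, and Aacs, which supplies acetoacetyl-CoA, had -0.21 in Ctr cells and -0.062 in αGlu cells (adjusted p = 0.58). Of 18 other transport and storage genes, 6 rose and 6 fell in Ctr cells, and 4 rose and 7 fell in αGlu cells. Stard5 had 0.90 in both (adjusted p = 2.18e-09 in Ctr cells), and Vldlr, a lipoprotein receptor, had 0.33 and 0.25. Abca7 had -0.47 (adjusted p = 1.86e-06) and -0.33, Osbpl5 had -0.37 and -0.32, and Lrp1 had -1.17 (adjusted p = 9.56e-06) and -1.14. Lrp1, a lipoprotein receptor too, is also expressed in fibroblasts, whose markers fell. Of 10 genes on isoprenoid side branches, 3 rose and none fell in Ctr cells, Nus1, Dhdds and Fntb, and 4 rose in αGlu cells. Of 3 oxysterol enzymes tested, Cyp7b1 rose by 0.38 (adjusted p = 0.0432) and 0.41. Of 11 lipogenic targets of SREBP1 and LXR, 5 rose and 1 fell in Ctr cells and 6 rose and 1 fell in αGlu cells: Lpcat3 had 0.96 (adjusted p = 3.83e-11), Elovl6 0.56, Fads1 0.41 and Gpam -0.23 in Ctr cells, and all 4 passed in αGlu cells.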

How the data were processed

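The authors ran version 5.1 of QIAGEN's RNA-seq portal. The deposited table gives raw counts of reads on exons, RPKM, TPM and CPM for each gene. The submitters' notes name GRCm38, and the aligner is not given in the sources used here. Empty cells were read as 0, and 1 line without a gene (0 counts) was left out. Counts were filtered (filterByExpr), scaled by TMM and fitted in edgeR 4.0.16 (R 4.3.3) with group and batch as terms over all 24 libraries. Two-sided quasi-likelihood tests were adjusted by Benjamini-Hochberg over 15916 genes. The SE is the log2 fold change over the root of F. The deposited TPM values, scaled by the authors, served for levels between genes, and TMM-scaled CPM for levels within a gene. Scripts were tested on simulated data. Library totals set the precision of counts, and reads carry no molecular identifiers. Libraries shared no replicate numbers and the labels do not tie them to animals, so groups were unpaired. Genes named outside the 34 are up to 3 per list and direction with the smallest p. The members and lists were chosen with earlier results of these data known. Alternatives were DESeq2 1.42.0, other scaling, filters, batch handling and omission of each library, and the PA response by batch or averaged over ASOs and a block of 4 consecutive libraries were added after seeing the data.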

Additional observations from a re-analysis of the deposited data

Results flagged for a closer look

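Of 136 combinations of a gene and a group, 11 held a library far from the other 5, and chance flags about 1 in 20 groups. Ctr PA library S23 gave 7 of them. It had the highest values of Idi1 (87.6 CPM, next 60.9), Ggps1 (65.3 CPM, next 49.3), Hsd17b7 (37.2 CPM, next 23), Stard4 (55.8 CPM, next 41.9) and Soat1 (64.6 CPM, next 49.9), and the lowest of Mvk (6.23 CPM, next 9.69) and Scap (81.5 CPM, next 98.7). Ctr BSA library S1 gave 3, with the highest Scap (125 CPM) and Nr1h2 (68.3 CPM) and the lowest Abca1 (324 CPM). Ctr BSA library S5 had the highest Nsdhl (18.3 CPM, next 17). S1 had the lowest total of all libraries, 18214719 counts.

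The PA response differed between batches for Fdps, by 0.67 (adjusted p = 0.000103), and for Acat2, by 0.67 (adjusted p = 0.00359), by a test of the difference itself.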

How the results depend on the processing

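The called members numbered 16 for PA in Ctr cells, and 14 to 16 with each library left out in turn; for αGlu cells 17, and 15 to 19. In batch 1 alone, 8 members were called in each comparison, and in batch 2 alone 18 in Ctr and 17 in αGlu cells. Calls over all genes were not counted in these single-batch fits, so these numbers do not set the members apart from other genes. At a fold change above 2 and an unadjusted p under 0.05, 0 were called for PA in Ctr cells, in αGlu cells and between batches. The median log2 fold change in Ctr cells was 0.068 in batch 1 and 0.41 in batch 2, and 0.14 to 0.25 with each library left out, the lowest without Ctr PA library S23. For αGlu cells, batch 1 gave 0.10 and batch 2 gave 0.43. The αGlu comparisons and the difference of responses gave 0 called members under every alternative run, and no call changed direction. Of the 33 calls under PA, 14 held under all alternatives and omissions, 6 were lost without a single library and 19 under another alternative, mostly a single batch. Of 35 uncalled values, 8 passed without 1 library: in Ctr cells Pmvk (S1, S17 or S23), Idi1 (S5), Tm7sf2 (S1) and Soat1 (S21), in αGlu cells Hmgcs1 (7 libraries), Pmvk (S2, S15 or S23), Ebp (S22) and Srebf2 (S8). Sets of 4 consecutive library numbers hold each group once, but that they share an animal is an assumption, tried after seeing the data. Deviations from the group and batch means correlated across genes by 0.0183 to 0.37 within sets (median 0.152, 36 pairs, 25 above 0.1). Between sets of a batch they correlated by -0.306 to 0.118 (median -0.0799, 72 pairs, 1 above 0.1). Each library was matched to its best-correlated library in each other group of its batch. In 67 of 72 cases that match lay in its own set. With this set as a replicate block, 18 members were called for PA in Ctr cells and 20 in αGlu cells. Of all 15916 genes, 5617 and 5420 were then called. No call of a member was lost, and Pmvk, Soat1, Hmgcs1 and Tm7sf2 were gained. The αGlu comparisons still called 0 members (9 genes in all with BSA). The difference between batches passed for 7 members instead of 2, and for 81 genes in all instead of 9. Depth limits Nr1h3 most, with 93 to 285 counts per library.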
